A study of Mus musculus with 206 samples.

Results

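The promoter regions described here are stretches of neuronal chromatin that carried H3K27ac in every brain region of the study. They are the regions of the hypothalamus consensus peak list that overlap, by at least 1 bp, a region of each of the prefrontal cortex (PFC), hippocampus and striatum consensus lists and lie within 1 kb of the transcription start site (TSS) of a protein-coding gene (mm10, GENCODE M21). They were thus selected on the peak positions of the 4 consensus lists, with no group contrast in the rule. The rule found 2312 regions among 13788 in the hypothalamus list (16.8%). They make up 53.8% of the 4300 promoter regions of the hypothalamus. Of the 6228 hypothalamus regions present in all 4 lists, 37.1% lay at a promoter. Since peak calls made the lists, the presence of a peak in these regions is a description and not a finding.

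H3K27ac is acetylation of lysine 27 of histone H3, placed by the acetyltransferases CBP and p300 and removed by histone deacetylases. At promoters it sits on the nucleosomes that flank the TSS of active genes, and at distal sites it marks active enhancers. Promoters of genes used by most cells carry it in many tissues, whereas enhancers differ more between cell types. Many mammalian promoters lie in CpG islands, short stretches rich in the dinucleotide CG that escape DNA methylation, and the others are poorer in CG and more often hold a TATA box.

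The nuclei came from male and female C57BL/6NTac mice and were sorted for NeuN, the neuronal splicing factor encoded by Rbfox3. About 10000 nuclei of 1 animal and brain region went into each MOWChIP-seq library, a chromatin immunoprecipitation run in a microfluidic chamber. There were 4 groups. MOR-LPS mice had perinatal morphine and an adult lipopolysaccharide (LPS) challenge, MOR-SAL mice perinatal morphine and adult saline, SAL-LPS mice perinatal saline and adult LPS, and SAL-SAL mice saline at both times. Perinatal morphine went to the dam by minipump during gestation and to the pup by injection of 10 mg/kg from postnatal day 1 to 14. Pups of both perinatal treatments went to foster dams at birth, and brains were collected 2 h after the LPS or saline injection of the adult. Since treatment was given by dam, litters are nested within perinatal treatment. Every neuron type of a dissected brain region is mixed in a library, so fewer nuclei with the mark and less of the mark per nucleus cannot be told apart.

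The hypothalamus had 10 MOR-LPS, 12 MOR-SAL, 11 SAL-LPS and 8 SAL-SAL libraries. In the same order there were 14, 9, 11 and 8 in PFC, 10, 11, 12 and 11 in hippocampus, and 15, 7, 13 and 10 in striatum, 172 in all. The sexes were unequal in some groups. Females made up 6, 4, 6 and 6 of the hypothalamus libraries and 6, 3, 8 and 5 of those in PFC, in the same order. They made up 4, 5, 7 and 5 in hippocampus and 7, 4, 10 and 6 in striatum. The lists held 10811 to 143527 peaks, which served as the measure of depth. PFC libraries were made with another library kit than the other brain regions, so kit and PFC cannot be told apart. The PFC MOR-SAL male library 13-1 stood apart: it had 11306 peaks, a peak in 8 of the 2312 regions (0.346%), and peaks at 0 of 30 neuron, 4 of 15 astrocyte and 3 of 18 oligodendrocyte marker genes among its 10000 strongest peaks. The next lowest PFC library had a peak in 73.9% of the regions. In 5 further libraries fewer than 40% of the regions had a peak: hippocampus SAL-LPS female 10-2 (34.2%) and MOR-SAL male 14-1 (35.2%), striatum SAL-LPS female 4-0 (36.8%), and hypothalamus SAL-SAL female 10-3 (37.5%) and MOR-SAL female 15-4 (39.8%). Results were computed with and without these 6.

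The regions were 1102 to 28362 bp wide, with a median of 3499 bp and quartiles of 2645 and 5008 bp. A TSS lay inside 1946 of them (84.2%), and the other 366 had their nearest TSS 1 to 1000 bp outside an edge. At the border of the rule, the regions at Flrt2, Asic1 and Plch2 lay 960, 964 and 965 bp from a TSS and were kept, and those at Cpeb2, Zfp52 and Lonrf1 lay 1001, 1022 and 1059 bp away and were not. One gene had a TSS within 1 kb for 2107 of the regions, 2 genes for 195, 3 genes for 9 and at least 4 genes for 1. TSSs on both strands, as at divergent gene pairs, were near 174 of them (7.53%), against 6.64% of the other hypothalamus promoter regions. Together the regions touched 2329 of 21840 protein-coding genes (10.7%). Most of these genes (2161) had a single region. Tcf4, which encodes a basic helix-loop-helix factor of neurons, had 6 regions at its alternative starts. Ank2 (an ankyrin of the axonal membrane), Atp2b2 (a plasma membrane calcium pump), Runx1t1 and Trim2 had 4 each.

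Few of the regions lay on the X chromosome. They were at Hcfc1 (chrX:73965727-73968438), a transcriptional co-regulator, Il1rapl1 (chrX:88111472-88117123), a synaptic adhesion protein, and Gpm6b (chrX:166344314-166346879), a myelin and neuronal membrane protein. These 3 regions were set against 948 X-linked protein-coding genes, or 0.316 per 100 genes, while the autosomes ranged from 8.24 per 100 genes on chromosome 14 to 16.4 on chromosome 15. The whole hypothalamus list held 57 X-linked regions, 25 of them at promoters; 3 of these 25 were shared, against 2312 of 4300 over all chromosomes.

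The promoter sequences show what the shared set is made of. The windows below run from 250 bases before to 50 bases after a TSS, 5′ to 3′ on the strand of the gene, in the mm10 genome, so they hold the proximal promoter and the start of the first exon. Each of the first 4 belongs to the region of highest mean H3K27ac rank among the shared promoters with the motif named, whose letters are in capitals. They range from a CG-poor window with a TATA box to a CpG island.
Slc4a10, chr2:62046212-62046511, plus strand, TATA box (matched on the other strand): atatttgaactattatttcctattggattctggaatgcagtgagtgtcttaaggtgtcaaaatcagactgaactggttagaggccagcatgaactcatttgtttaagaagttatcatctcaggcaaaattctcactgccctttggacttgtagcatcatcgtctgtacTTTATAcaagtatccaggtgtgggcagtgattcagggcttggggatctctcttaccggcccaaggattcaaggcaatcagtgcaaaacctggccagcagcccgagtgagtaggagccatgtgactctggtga
Hlcs, chr16:94313514-94313813, minus strand, GC box: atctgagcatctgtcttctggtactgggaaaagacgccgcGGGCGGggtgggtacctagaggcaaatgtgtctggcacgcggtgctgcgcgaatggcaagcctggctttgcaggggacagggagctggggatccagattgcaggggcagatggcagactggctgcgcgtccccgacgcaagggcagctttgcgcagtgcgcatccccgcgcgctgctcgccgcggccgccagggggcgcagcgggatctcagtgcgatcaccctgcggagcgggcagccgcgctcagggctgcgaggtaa
Hsp90ab1, chr17:45573222-45573521, minus strand, cAMP response element: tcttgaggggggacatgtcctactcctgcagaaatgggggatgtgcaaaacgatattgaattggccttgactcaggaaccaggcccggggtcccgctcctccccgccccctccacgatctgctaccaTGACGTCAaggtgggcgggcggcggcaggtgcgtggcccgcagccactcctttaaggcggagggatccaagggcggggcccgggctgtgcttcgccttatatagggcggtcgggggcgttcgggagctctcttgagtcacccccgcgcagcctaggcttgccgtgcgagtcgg
Kmt2e, chr5:23434191-23434490, plus strand, YY1 motif: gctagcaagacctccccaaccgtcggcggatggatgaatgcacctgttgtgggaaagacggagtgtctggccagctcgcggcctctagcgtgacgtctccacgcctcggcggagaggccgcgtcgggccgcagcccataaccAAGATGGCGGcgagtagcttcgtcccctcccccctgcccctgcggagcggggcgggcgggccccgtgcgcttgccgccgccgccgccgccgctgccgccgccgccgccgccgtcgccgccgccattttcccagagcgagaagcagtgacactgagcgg

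Slc4a10, which encodes a neuronal sodium-bicarbonate transporter, had 3 CG dinucleotides in its window. Hlcs, the ligase that joins biotin to carboxylases, had 29. Hsp90ab1, a constitutive heat shock protein, had 24, and the 8 letters of its cAMP response element started 123 bases before the TSS. Kmt2e, a chromatin regulator with a SET domain, had 41 CG dinucleotides, the most of the 4.

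The next 4 windows belong to genes that return in the comparisons of groups; they were chosen after their values were seen. The Per1 window starts at the edge of the upstream Per1 region, the one called in a comparison, and runs through the gap to the other Per1 region, so most of its letters, the E-box included, lie outside the called region. All matches to the motifs searched are in capitals.
Serpina3n, chr12:104406479-104406778, plus strand: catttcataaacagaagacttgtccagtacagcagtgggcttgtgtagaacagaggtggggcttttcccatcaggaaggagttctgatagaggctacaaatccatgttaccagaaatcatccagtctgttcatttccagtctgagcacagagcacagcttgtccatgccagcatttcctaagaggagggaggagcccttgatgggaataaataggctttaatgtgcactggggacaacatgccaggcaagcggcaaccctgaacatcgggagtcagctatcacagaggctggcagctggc
Per1, chr11:69094967-69095266, plus strand: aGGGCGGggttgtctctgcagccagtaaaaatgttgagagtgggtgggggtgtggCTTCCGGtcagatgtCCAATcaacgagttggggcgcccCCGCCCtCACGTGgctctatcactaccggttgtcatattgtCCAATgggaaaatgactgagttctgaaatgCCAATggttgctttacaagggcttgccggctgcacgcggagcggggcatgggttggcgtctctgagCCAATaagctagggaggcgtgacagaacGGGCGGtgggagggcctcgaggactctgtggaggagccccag
Rgs17, chr10:5922351-5922650, minus strand: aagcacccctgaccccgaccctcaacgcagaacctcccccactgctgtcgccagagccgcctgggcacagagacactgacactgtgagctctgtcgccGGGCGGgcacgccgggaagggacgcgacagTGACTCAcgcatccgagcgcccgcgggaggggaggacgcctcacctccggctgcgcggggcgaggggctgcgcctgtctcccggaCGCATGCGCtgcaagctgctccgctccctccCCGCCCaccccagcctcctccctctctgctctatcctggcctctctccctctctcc
Mmp16, chr4:17853208-17853507, plus strand: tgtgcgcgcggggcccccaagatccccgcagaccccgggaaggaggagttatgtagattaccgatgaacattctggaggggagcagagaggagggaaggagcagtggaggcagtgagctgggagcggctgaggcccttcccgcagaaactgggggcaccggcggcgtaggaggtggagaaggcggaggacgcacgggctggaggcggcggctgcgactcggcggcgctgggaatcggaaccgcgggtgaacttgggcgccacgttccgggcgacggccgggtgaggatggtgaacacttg

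Serpina3n, an acute-phase serine protease inhibitor of astrocytes and liver, had 2 CG dinucleotides and none of the motifs. Per1, a repressor of the circadian clock that also responds to glucocorticoids and to cAMP, had 9 matches: 4 CCAAT boxes, 3 GC boxes, 1 ETS motif and 1 E-box that started 150 bases before the TSS. Rgs17, a GTPase-activating protein for Gi and Go proteins, had 27 CG dinucleotides, 2 GC boxes, 1 NRF1 motif and 1 AP-1 motif. Mmp16, a membrane-bound matrix metalloprotease, had 29 CG dinucleotides and none of the motifs.

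Over the 2098 windows whose TSS fell to a shared region, the median GC content was 60.3% and the median number of CG dinucleotides 18. The observed over expected CG ratio, which corrects for GC content, had a median of 0.709. It reached 0.6, a usual limit for CpG islands, in 64.4% of the windows and was below 0.3 in 10.8%. The 1815 windows of other hypothalamus promoter regions were close to this, with a median of 19 CG dinucleotides, a median ratio of 0.728 and 67.1% at 0.6 or more. The 6385 windows with a region in another brain region only had a median ratio of 0.774, with 73.1% at 0.6 or more. The 11549 windows with no region in any list had a median ratio of 0.275 and 24.7% at 0.6 or more. Leaving the olfactory receptor genes out of that last set (10469 windows) moved its median to 0.313. In CG content the shared windows lay above the unmarked ones and slightly below those marked in fewer brain regions.

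The motifs gave the same order of classes for some factors and not for others. The GC box (GGGCGG), bound by Sp and KLF factors, was in 58.2% of shared, 60.6% of other hypothalamus, 62.5% of other brain region and 30.1% of unmarked windows. The TATA box (TATAAA) was in 7.25%, 7.00%, 6.72% and 17.6% of the same classes. The CCAAT box (CCAAT), bound by NF-Y, was in 34.8% of shared and 38.7% of all windows. The ETS motif (CCGGAAG) was in 12.7% of shared windows, against 15.2% of other hypothalamus and 19.2% of other brain region windows. The cAMP response element (TGACGTCA), bound by CREB and ATF factors that link neuronal activity to transcription, was in 4.58% of shared windows, against 3.09%, 3.71% and 1.32% of the other classes and 2.48% of all windows. The E-box (CACGTG), bound by CLOCK, MYC and USF factors, was in 8.72% of shared and 7.80% of all windows. The AP-1 motif (TGANTCA), bound by FOS and JUN, was in 4.96% of shared and 8.51% of unmarked windows. The NRF1, YY1 and ZNF143 motifs were in 2.62%, 1.57% and 3.19% of shared windows and in 2.51%, 1.18% and 2.71% of all windows, and the NF-kB motif was in 2 shared windows (0.0953%). All were searched on both strands of 300 bases; their matches may overlap. A match is letters in a window and not a bound site.

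**Figure D1:**
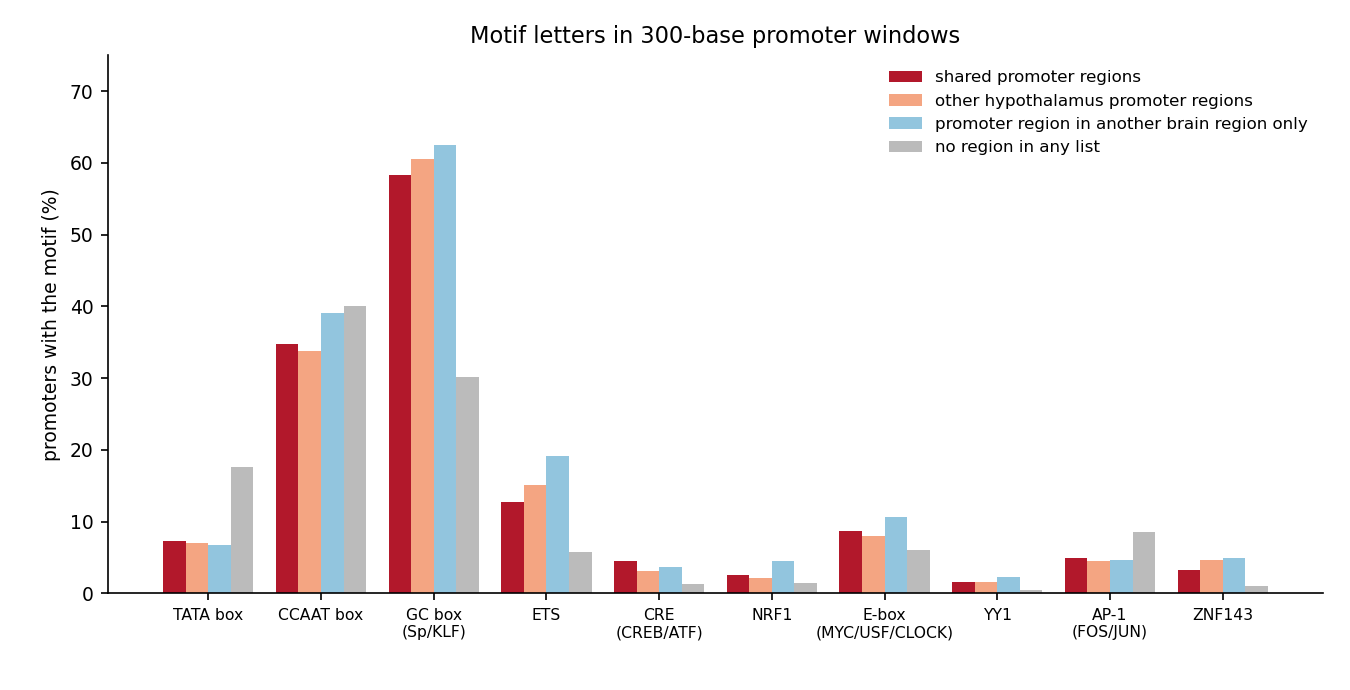
Share of 300-base promoter windows that hold each motif (%, vertical axis) for shared promoter regions, other hypothalamus promoter regions, promoters with a region in another brain region only, and promoters with no region in any list. The GC box was in 58.2% of shared and 30.1% of unmarked windows, and the TATA box in 7.25% and 17.6%.

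Gene lists show which genes the shared promoters belong to, against 10.7% of all protein-coding genes. Among 30 markers of neurons, 19 had a shared promoter region (63.3%), including Rbfox3 itself, Snap25, Syt1 and Vamp2 of the synaptic vesicle machinery, Map2 and Mapt of the cytoskeleton, and Dlg4 of the postsynaptic density. Among 21 genes of the circadian clock, 10 had one, among them the repressors Per1, Per2 and Cry2, the kinases Csnk1d and Csnk1e, and the output factors Dbp and Tef. Among 30 immediate early genes, which neurons induce within minutes of activity, 12 had one, including Jun, Junb, Jund, Fosl2, Arc, Nr4a1 and Nr4a3. The opioid signalling list had 10 of 28: Oprl1, the nociceptin receptor; the G protein subunits Gnai2, Gnao1 and Gng2; the arrestins Arrb1 and Arrb2; the kinase Grk2; and Adcy1, Prkacb and Rgs4. The glucocorticoid list had 7 of 21 (Ddit4, Dusp1, Errfi1, Fkbp5, Hif3a, Per1 and Sgk1), and glucose and lipid metabolism 13 of 36, with the glycolytic genes Hk1, Aldoa, Gapdh, Eno1 and Pkm among them.

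Housekeeping lists were not all high. Chaperonins and heat shock proteins had 15 of 67 genes with a shared region, V-ATPase subunits 6 of 22 and ATP synthase subunits 4 of 17. Cytosolic ribosomal proteins had 8 of 79 (10.1%), translation initiation factors 3 of 55, proteasome subunits 4 of 48, and RNA polymerase II and Mediator subunits 4 of 46. The lists of the brain regions differed in how many of these genes they held: 72 of the 79 ribosomal protein genes had a promoter region in striatum and 49 in PFC, against 15 in hypothalamus and 11 in hippocampus. The striatum list was also the longest, with 60013 regions, against 18272 in PFC, 16201 in hippocampus and 13788 in hypothalamus, and it held a promoter region of 10411 genes, against 5382, 3702 and 4254. The NF-kB list had 4 of 31 (12.9%; Nfkbid, Nfkbiz, Rela and Serpina3n) and the interferon list 1 of 27 (3.70%; Irf2). Among markers of other brain cells, microglia had 0 of 14 and endothelial cells 0 of 10. Astrocytes had 1 of 15 (Slc1a2, a glutamate transporter), with Gfap, Aqp4 and Aldh1l1 not among them. Oligodendrocytes had 2 of 18 (Mbp and Mog, myelin proteins). The Hox cluster genes had 0 of 39 and the olfactory receptors 0 of 1091.

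**Figure D2:**
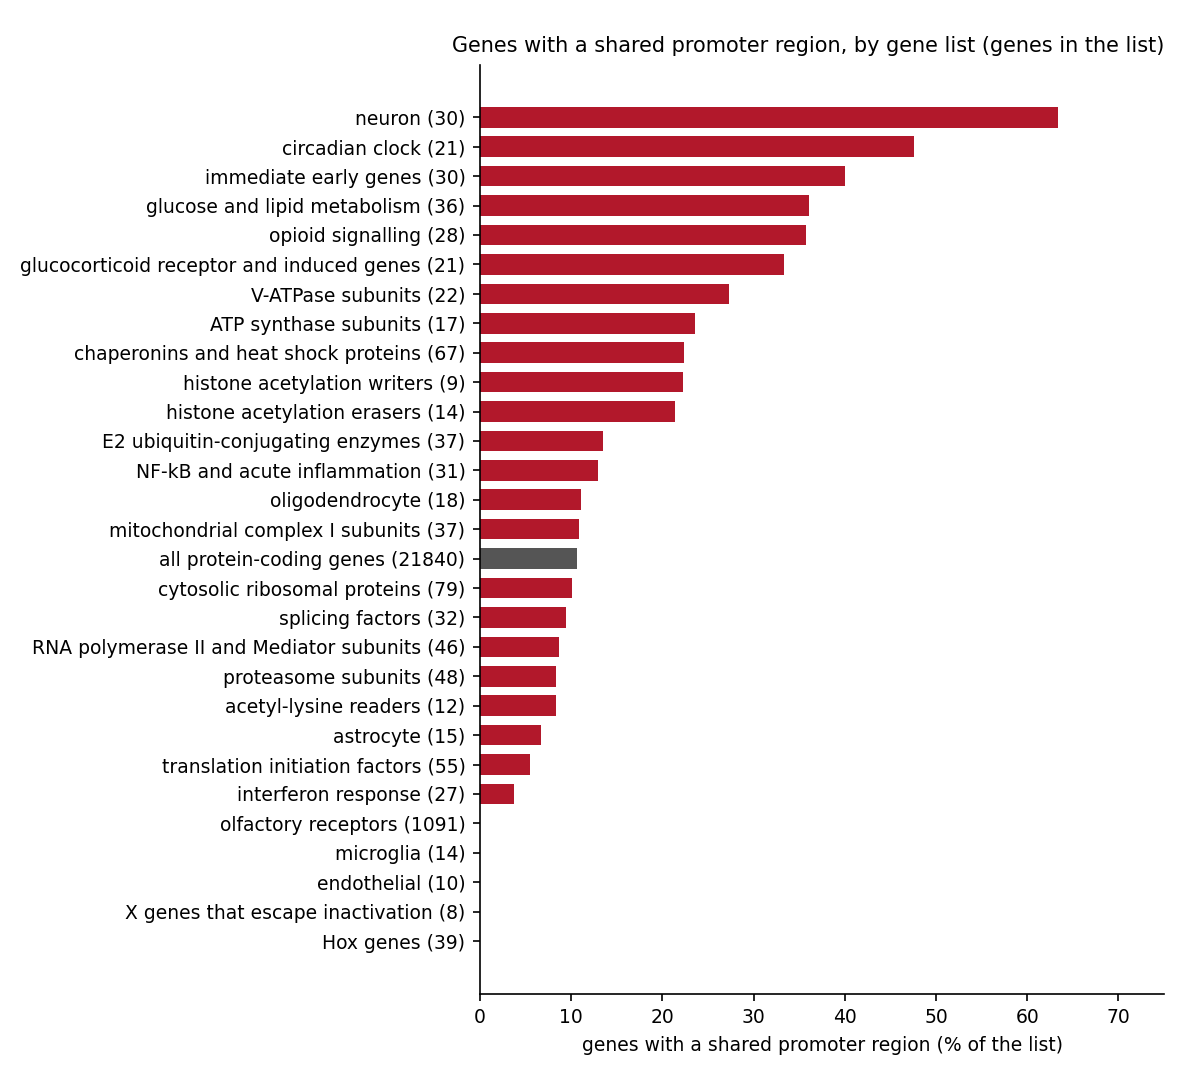
Percentage of each gene list with a shared promoter region (horizontal bars from 0; number of genes in the list in brackets), with all protein-coding genes in grey. Neuron markers stood at 63.3%, all genes at 10.7% and the microglia, endothelial, Hox and olfactory receptor lists at 0.

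To compare levels, each library's regions were ordered by the highest −log10 p of a peak in them, and the order was written as a rank of 0 to 100. A region with no peak takes the shared lowest rank of its library. Among all 13788 hypothalamus regions, the shared promoters averaged a rank of 60.4, other promoters 49.2, distal regions present in all 4 lists 53.8 and other distal regions 43.3. On average a peak was present in 84.9% of hypothalamus libraries at shared promoters and in 74.4% at other promoters, and a peak in all 41 libraries was found for 4.63% of shared and 0.252% of other promoters. Since the rule chose regions by their peaks, these are descriptions. The median width was 3499 bp for shared promoters, 2726 bp for other promoters, 4411 bp for distal regions in all 4 lists and 3634 bp for other distal regions. A region takes the largest value among its peaks, and a wider region can hold more of them. The part of width in the ranks was not tested. Wider regions ranked higher: the median width was 3290 bp in the lowest-ranked group of 771 shared promoters and 3986 bp in the highest-ranked group of 771. The CG ratio ran the other way, with medians of 0.713 and 0.659.

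For levels between brain regions, libraries were ranked within the 2312 shared promoters. In a median library a peak was present in 90.0% of them in hypothalamus, 97.9% in PFC, 95.0% in hippocampus and 91.1% in striatum. No region had a peak in all 172 libraries; the lowest had one in 75 and the median region in 153. The PFC library 13-1 weighed on such counts: 2 regions had a peak in every PFC library with it and 1021 without it. Without it, 16 regions had a peak in all other 171 libraries, and no mean rank in PFC moved by more than 2.15. In hypothalamus 107 regions had a peak in every library, in hippocampus 79 and in striatum 180.

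The highest mean rank belonged to the promoter of Gpm6a (chr8:54953064-54959469), a membrane glycoprotein of neurites. It had mean ranks of 92.8 ± 10.8 in hypothalamus, 95.5 ± 8.8 in PFC, 92.2 ± 9.7 in hippocampus and 93.1 ± 12.4 in striatum (SD over 41, 42, 44 and 45 libraries) and a peak in 171 libraries. These means differed by less than the spread within any brain region. Igsf8, Cstad and Gramd1b also stood near the top, with means over the 4 brain regions of 91.1, 90.8 and 90.1. At the bottom stood Hist1h1d, a linker histone gene, at 14.2, followed by Itsn2 and Zfpm2 at 14.9, Gm10322 at 15.4 and Grik3, a kainate receptor subunit, at 16.4.

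The difference between the highest and the lowest of the 4 means had a median of 18.7, and it was under 10 for 323 regions and over 40 for 118. The SD over libraries within a brain region had medians of 24.7 in hypothalamus, 20.2 in PFC, 24.1 in hippocampus and 23.4 in striatum, which is the spread of single libraries and not the error of a mean. The smallest difference was at Hist1h3e, a histone H3 gene, with means of 59.7, 59.2, 59.1 and 59.2. The largest was at a Tcf4 start, with 30.5 ± 31.0 in hypothalamus, 41.1 ± 28.9 in PFC, 88.3 ± 15.3 in hippocampus and 17.3 ± 20.7 in striatum. A start of Nfix (chr8:84774449-84789790), which encodes a nuclear factor I protein, had the same order: 27.5 ± 33.3, 39.7 ± 25.7, 89.3 ± 13.9 and 24.0 ± 28.5. At both genes hippocampus lay above the other brain regions by more than the SD of any of them. Chrm1, the M1 muscarinic receptor, was high in hippocampus (83.5) and PFC (74.8), between these and the lowest in striatum (51.4), and lowest in hypothalamus (24.5). Phactr3 had 83.1 in striatum, 63.9 in PFC, 58.4 in hypothalamus and 24.6 in hippocampus, and Fbxo34 had 70.0 in hippocampus, 41.1 in hypothalamus, 24.5 in striatum and 13.7 in PFC.

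Each brain region also had promoters that stood highest in it. In hypothalamus they included Dpysl3, a regulator of axon growth, with a mean rank of 53.6, against 9.3 in PFC, 16.4 in hippocampus and 20.7 in striatum. Mast4, Elavl4 (a neuronal RNA-binding protein), Phyh and Pde4d (a cAMP phosphodiesterase) had 77.4, 77.0, 72.1 and 68.5 there. In PFC they were Tmem80, Kdm8, Ranbp2, Oxsr1 and Tada3, with 81.5 to 94.1. In hippocampus they were Nfix, Tcf4, Mast3, Mybph and Rfx1, and in striatum Phactr3, Rap1gap (a Rap GTPase-activating protein), Ckmt2 (mitochondrial creatine kinase), Trnp1 and Ypel2, with 59.1 to 83.1. These genes were picked for their levels, so no test is given. Among the lists, the regions of translation initiation factors had a median rank of 84.8 in PFC and 52.3 in hypothalamus, and those of RNA polymerase II and Mediator subunits 81.9 in PFC and 59.0 in hypothalamus. The regions of the opioid list had a median of 36.2 in PFC, against 51.7 in hypothalamus, 54.9 in hippocampus and 47.8 in striatum. The medians over all 2312 regions lay between 48.8 and 49.9 in the 4 brain regions.

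**Figure D3:**
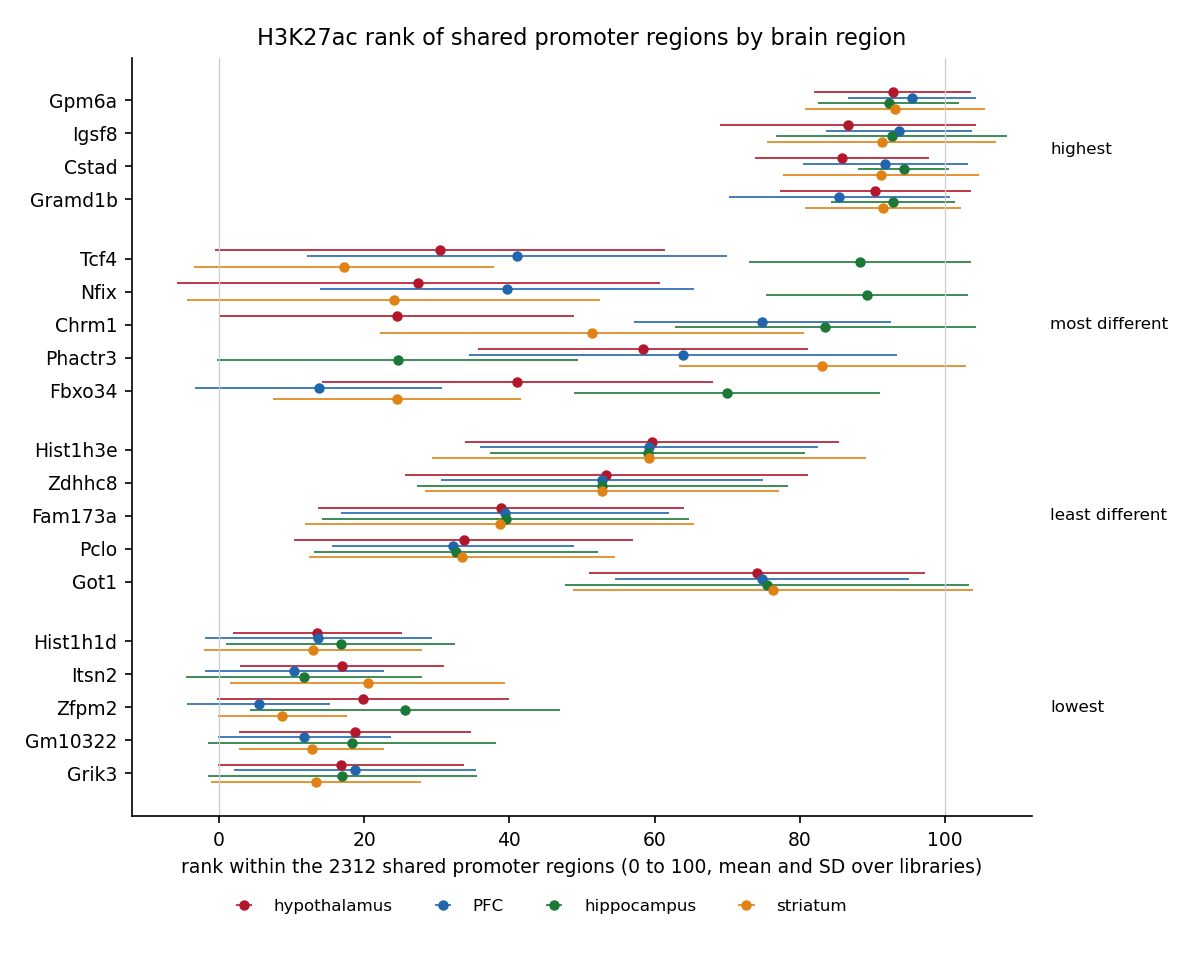
Mean rank of H3K27ac within the 2312 shared promoter regions (0 to 100, horizontal axis; lines, SD over libraries) in hypothalamus, PFC, hippocampus and striatum, for 4 of the highest regions and for the 5 most different between brain regions, the 5 least different and the 5 lowest. Gpm6a lay between 92.2 and 95.5 in every brain region, while the Tcf4 start lay at 88.3 in hippocampus and 17.3 in striatum.

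Peak summits gave the shape of the mark around the start. In the 830 shared promoters with a single TSS position inside, summits avoided the TSS and piled up on either side of it. With 1 low library left out (171 used), the bin of 100 bp just before the TSS held 2.13% to 2.47% of summits in the 4 brain regions. The bin 200 to 300 bp before it held 7.41% in hypothalamus, 9.12% in PFC, 7.13% in hippocampus and 7.46% in striatum. After the TSS, the bin from 100 to 200 bp held 5.55%, 9.01%, 6.80% and 6.18%, and the next bin 6.09%, 7.43%, 7.46% and 7.54%, in the same order. More summits lay downstream than upstream, with 54.5 ± 3.4% in hypothalamus, 58.3 ± 3.9% in PFC, 57.7 ± 2.5% in hippocampus and 57.0 ± 2.6% in striatum (SD over libraries). The median summit lay 122 ± 76, 150 ± 36, 171 ± 48 and 161 ± 32 bp downstream in the same order. These positions overlapped between brain regions within the spread of libraries.

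**Figure D4:**
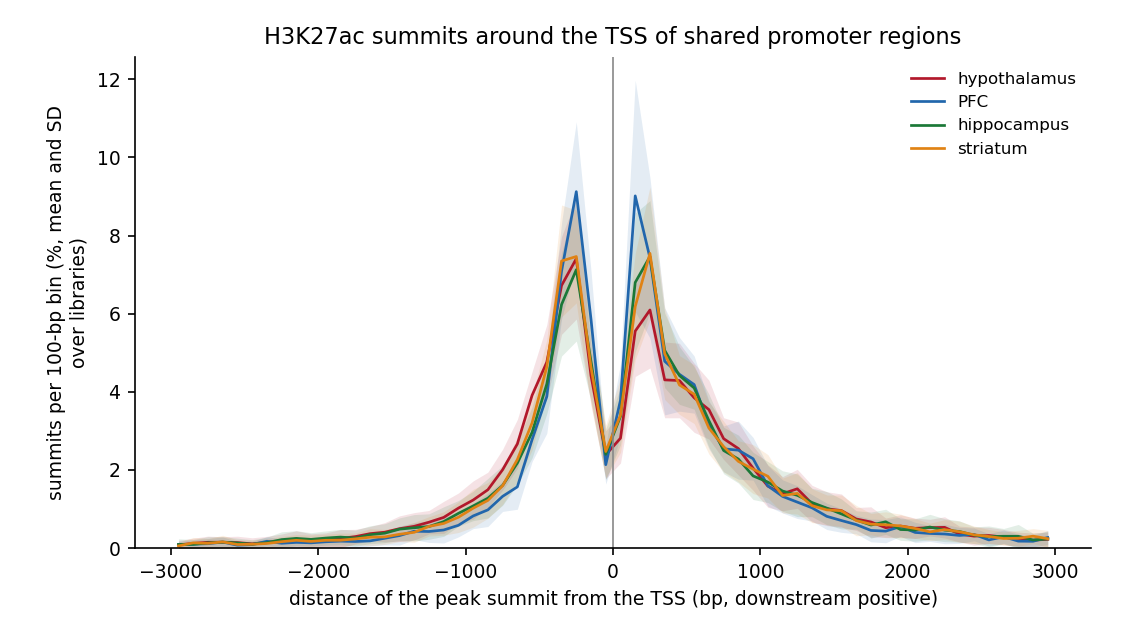
Peak summits of H3K27ac per 100-bp bin (% of summits, vertical axis; line, mean, and band, SD over libraries) against distance from the TSS in bp, downstream positive, for 830 shared promoters with 1 TSS position. All 4 brain regions had a dip of 2.13% to 2.47% just before the TSS between crests on both sides.

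Groups were compared in each brain region by the rank of the region in that brain region's own list, with limma over all its regions, sex as a term and Benjamini-Hochberg adjustment. A change is given in rank points (0 to 100) with its SE, and a region was called at an adjusted p under 0.05. Regions without a peak share the lowest rank of their library, which is higher where fewer regions have a peak. Low ranks that recur between genes below can be this shared rank and not a measured level. They are not marked. Counts at an unadjusted p under 0.05 are given below for some comparisons, without the share over all regions. Chance alone brings many regions under that limit. Without that share these counts cannot show whether the shared promoters differed from other regions. In hypothalamus, perinatal morphine under LPS (MOR-LPS against SAL-LPS) gave the most calls: 37 shared promoters ranked higher and 17 lower in MOR-LPS. Over all 13788 regions, 2.63% were called higher and 1.68% lower, against 1.60% and 0.735% of the shared promoters (the difference in shares was not tested). The median change was 3.02 points over the shared promoters and -0.344 over all regions.

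The smallest p among regions higher in MOR-LPS was at Nfix. There, a region of chr8:84769961-84773755 had ranks of 5.94, 70.4 and 98.9 (lowest, median and highest) in the 10 MOR-LPS libraries, against 5.14, 13.2 and 40.4 in the 11 SAL-LPS libraries. It was higher by 44.7 ± 9.1 points (adjusted p = 0.00323), and 8 of 10 MOR-LPS libraries lay above the SAL-LPS median. The neighbouring Nfix region (chr8:84774449-84789790) was higher by 44.3 ± 9.9 (adjusted p = 0.00483), with a median of 73.8 in MOR-LPS and 13.9 in SAL-LPS. The MOR-LPS libraries thus fell into high and low ones at Nfix, and the groups overlapped at the low end. Zeb2, a zinc-finger repressor active in neural development (chr2:45113351-45116982), had 5.94, 85.6 and 96.9 in MOR-LPS, against 5.14, 16.0 and 79.2 in SAL-LPS, and was higher by 41.0 ± 10.3 (adjusted p = 0.0103). A second Zeb2 region and both Tcf4 regions called were also higher, as were Sox8, a factor of the oligodendrocyte lineage, and Rfx1.

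Serpina3n (chr12:104405532-104408848), whose CG-poor window is printed above, had the largest estimated change among the 37. It had ranks of 70.9, 90.9 and 99.6 in MOR-LPS, against 13.2, 46.8 and 75.7 in SAL-LPS, a difference of 45.7 ± 11.0 (adjusted p = 0.00783). All 10 MOR-LPS libraries lay above the SAL-LPS median. Usp54, a gene of the ubiquitin-specific protease family (chr14:20613045-20620772), had 20.4, 61.5 and 98.6 in MOR-LPS, against 6.15, 13.2 and 77.4 in SAL-LPS, and was higher by 40.9 ± 9.8 (adjusted p = 0.00729). Pop7, an RNase P subunit gene (chr5:137500906-137503411), was higher by 41.8 ± 10.9 (adjusted p = 0.0144), with a median of 76.0 in MOR-LPS and 16.6 in SAL-LPS. Others called higher included Sulf2, Mapk3, which encodes the kinase ERK1, Gstm1 and Aak1.

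Dpysl3 had the smallest p among regions lower in MOR-LPS. It had ranks of 13.9, 29.4 and 94.3 in MOR-LPS, against 44.7, 81.4 and 96.0 in SAL-LPS, a change of -40.3 ± 10.5 (adjusted p = 0.0136). A single MOR-LPS library, male 13-2, was the one at 94.3, and the next was at 55.6. Mmp16 (chr4:17850805-17854798) had 28.6, 55.0 and 82.9 in MOR-LPS, against 52.8, 89.1 and 99.6 in SAL-LPS, a change of -28.4 ± 7.9 (adjusted p = 0.0219). All 10 MOR-LPS libraries lay below the SAL-LPS median. Cacnb2, a beta subunit of voltage-gated calcium channels (chr2:14872474-14878082), had a median of 49.3 in MOR-LPS and 86.2 in SAL-LPS, a change of -30.5 ± 8.7 (adjusted p = 0.0260). Zfp385b changed by -39.6 ± 10.9 (adjusted p = 0.0216), B3galt5, a galactosyltransferase, by -38.0 ± 10.5 (adjusted p = 0.0210), and Lrrc3b by -32.7 ± 9.1 (adjusted p = 0.0234). The sodium channel gene Scn3a, the postsynaptic scaffold Shank2, the granule protein Scg2, the regulator Rgs8, the adhesion protein Clstn3 and the transporter Slc6a17 were also called lower.

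**Figure D5:**
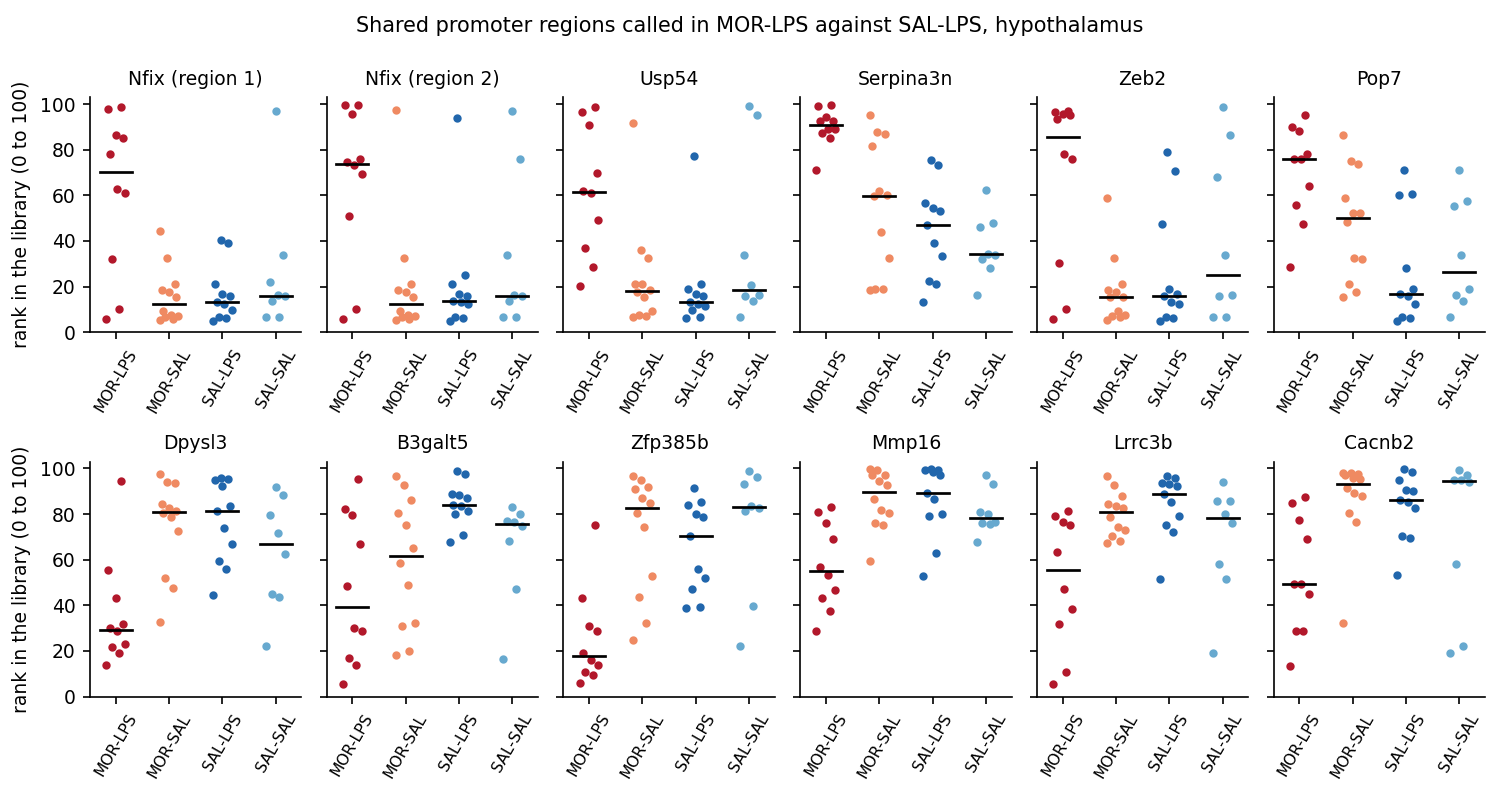
Rank of H3K27ac (0 to 100, vertical axis) at 12 shared promoter regions in each hypothalamus library (points) of MOR-LPS, MOR-SAL, SAL-LPS and SAL-SAL, with group medians as bars; upper row, called higher in MOR-LPS than in SAL-LPS, and lower row, called lower. At Nfix region 1 the MOR-LPS median was 70.4 and the SAL-LPS median 13.2, and at Mmp16 they were 55.0 and 89.1.

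By gene list, few of the shared promoters were called. Of 10 regions in the opioid list, 1 was called higher: Grk2 (chr19:4300817-4306005), the kinase that phosphorylates active opioid receptors. It had ranks of 44.8, 79.7 and 96.2 in MOR-LPS, against 16.6, 42.1 and 67.8 in SAL-LPS, a difference of 36.2 ± 11.2 (adjusted p = 0.0400). The median change of that list was -4.65, with 3 of 10 above 0. Of 4 regions in the NF-kB list, Serpina3n was called. Of 23 regions at neuron markers none was called, and their median change was -5.45, with 7 above 0. The 11 glucocorticoid regions had none called, a median of 14.5 and 9 above 0, with Sgk1, a kinase induced by glucocorticoids, at 25.5 ± 8.8 (adjusted p = 0.0674). The 16 chaperonin and heat shock regions had none called, a median of 7.48 and 15 above 0. The 13 circadian regions had a median of 6.29 and the 14 immediate early regions 6.53, with none called in either. Over all 2312 shared promoters, 1393 changes were above 0.

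The 37 regions called higher had a median width of 4391 bp and the 17 called lower 4746 bp, against 3499 bp for all shared promoters. The median CG ratio was 0.709 for those called higher and 0.575 for those called lower, against 0.690 for all. The median difference between the highest and lowest brain region mean was 26.8 for those called higher and 24.8 for those called lower. It was 18.7 for all. Within the shared promoters, those called higher had a median rank of 28.2 in hypothalamus and 36.9 over all brain regions. Those called lower had 58.8 and 49.1, and all shared promoters 49.5 and 49.1. Of the promoters named above as highest in hippocampus, Nfix, Tcf4 and Rfx1 were called higher, and Mast3 and Mybph were not called. Of those named for hypothalamus, Dpysl3 was called lower and the others were not called. These values are descriptions without a test. Whether the mix of neuron types in the libraries differed between the groups was not tested.

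Several measured quantities moved with this comparison, and their part in it was not tested beyond the values given here and in the next paragraph. MOR-LPS libraries had 28052 to 135368 peaks (median 70449.5), against 28710 to 74871 in SAL-LPS (median 48152). A peak was present in 59.7% to 99.6% of the shared promoters in MOR-LPS (median 93.2%), against 66.3% to 94.8% in SAL-LPS (median 83.3%). Among the 10000 strongest peaks, 2 to 16 of 30 neuron markers had a peak in MOR-LPS libraries (median 8.5), against 4 to 18 in SAL-LPS (median 11.0). Astrocyte markers had 0 to 3 of 15 in MOR-LPS (median 1.0), against 0 to 1 in SAL-LPS (median 0). Oligodendrocyte markers had 0 to 6 of 18 in MOR-LPS (median 1.0), against 0 to 3 in SAL-LPS (median 1.0). Microglia (0 of 14) and endothelial markers (0 of 10) had no peak among the 10000 strongest of any of the 41 libraries. Gfap, Aqp4, Aldh1l1 and Sox9 of astrocytes and Sox10 and Pdgfra of oligodendrocytes had none there either. Weaker peaks at these genes were not looked for. With the number of neuron markers as a term, 4 shared promoters were called, with astrocyte markers 10 and with oligodendrocyte markers 8. Peak names held the sequencing lane tag L007 in 6 of 10 MOR-LPS and 9 of 11 SAL-LPS libraries. The tag L004 was in 2 MOR-LPS and 0 SAL-LPS libraries, and 2 of each group had no tag. The tag alone does not tell the run. With lane as a term, where names without a tag formed their own level, 28 regions were called. With the L007 libraries alone 6 were called, among them both Nfix regions (adjusted p = 0.0310 and 0.0440) and Mmp16 (adjusted p = 0.0456).

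With the number of peaks of a library as a term, 51 regions were called. With every list reduced to the length of the shortest, 14 regions were called higher and 7 lower; both Nfix regions (adjusted p = 0.0179 and 0.0305), Serpina3n (0.0266), Mmp16 (0.0305), Cacnb2 (0.0391), Dpysl3 (0.0429) and Grk2 (0.0448) were among them, and Usp54 (0.0795), Zeb2 (0.0552) and Pop7 (0.124) were not. Leaving out 1 library at a time gave 16 calls (without MOR-LPS male 14-4) to 97 (without MOR-LPS male 13-2).

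LPS after perinatal morphine (MOR-LPS against MOR-SAL) shares the MOR-LPS libraries with the comparison above, so they are not independent. It gave 37 shared promoters higher (1.60%) and 7 lower (0.303%) in MOR-LPS, while 2.33% and 1.51% of all hypothalamus regions were called. Nfix was higher by 45.0 ± 9.1 (adjusted p = 0.00216), where the 12 MOR-SAL libraries had 5.55, 12.3 and 44.3. Zeb2 was higher by 49.2 ± 10.2 (adjusted p = 0.00244), with a MOR-SAL median of 15.5. Sulf2, a heparan sulfate sulfatase (chr2:166150494-166154708), had 13.9, 76.1 and 94.3 in MOR-LPS, against 5.73, 18.0 and 48.7 in MOR-SAL, a difference of 45.4 ± 10.1 (adjusted p = 0.00531). The region at Sftpc (chr14:70524959-70529751) was higher by 45.3 ± 9.6 (adjusted p = 0.00310) and Sbf1 by 43.6 ± 10.2 (adjusted p = 0.00562).

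Per1 was the circadian and glucocorticoid gene called in this comparison. Its upstream region (chr11:69092582-69094990) had ranks of 64.2, 94.5 and 99.7 in MOR-LPS, against 15.5, 37.1 and 98.4 in MOR-SAL, a difference of 43.4 ± 10.9 (adjusted p = 0.00990). In the saline-raised mice it had 5.14, 87.8 and 98.5 after LPS, against 15.7, 34.4 and 85.8 without, a difference of 27.8 ± 11.7 that was not called (adjusted p = 0.289). The interaction at Per1 was not among those called, so a difference between these effects was not shown. Serpina3n was higher by 35.4 ± 11.0 (adjusted p = 0.0434).

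Rgs17 (chr10:5920129-5923020) was lower in MOR-LPS, with the ranges of the groups nearly meeting at 52.2 and 53.0. It had ranks of 5.52, 33.5 and 52.2 in MOR-LPS, against 53.0, 87.8 and 98.4 in MOR-SAL, a change of -46.9 ± 11.0 (adjusted p = 0.00563, and 0.0149 with lists of equal length). Scg2, secretogranin II of dense-core vesicles (chr1:79436505-79441250), had 3.32, 43.6 and 81.2 in MOR-LPS, against 62.4, 78.8 and 98.6 in MOR-SAL, a change of -36.6 ± 9.7 (adjusted p = 0.0164). Cacnb2, Zfp385b, Mmp16 and Dpysl3 changed by -33.4, -41.9, -29.3 and -37.3 and were called. None of the 23 neuron marker regions was called, and their median change was -9.82, with 3 above 0. The neuron markers with a strong peak were 8.5 (median, 2 to 16) in MOR-LPS and 14.0 (6 to 19) in MOR-SAL. With the number of neuron markers as a term no shared promoter was called, and with oligodendrocyte markers 19 were. With the libraries of 1 lane alone none was called, and leaving out 1 library at a time gave 15 (without MOR-LPS male 14-4) to 85 calls (without MOR-LPS female 18-1).

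LPS after perinatal saline (SAL-LPS against SAL-SAL) gave 1 call among the shared promoters, lower in SAL-LPS, while 0.116% of all regions were called higher and 0.189% lower; 181 shared promoters had an unadjusted p under 0.05. The call was Pex5l (chr3:33072852-33094941), an accessory subunit of HCN channels. It had ranks of 6.15, 21.1 and 83.0 in SAL-LPS, against 71.9, 91.3 and 97.9 in SAL-SAL, a change of -52.9 ± 12.0 (adjusted p = 0.0292). All 11 SAL-LPS libraries lay below the SAL-SAL median, and the groups overlapped. With lists of equal length its adjusted p was 0.0630, and without libraries with peaks in few shared promoters 0.0528. Leaving out 1 library at a time gave 0 to 4 calls. Psip1, a chromatin-binding protein, was next among those higher that were not called, with 33.2 ± 10.3 (adjusted p = 0.123).

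Perinatal morphine without LPS (MOR-SAL against SAL-SAL) gave 0 calls by limma among the shared promoters and 0% of all regions, with 154 shared promoters at an unadjusted p under 0.05. The smallest p was at Ogdh, a subunit of the mitochondrial oxoglutarate dehydrogenase (chr11:6290821-6293554). It had ranks of 32.4, 73.5 and 96.0 in MOR-SAL, against 6.71, 17.7 and 51.7 in SAL-SAL, a difference of 50.6 ± 12.0 (adjusted p = 0.0931). Jdp2, a repressor of AP-1 (chr12:85597383-85599389), had 72.4, 87.3 and 99.5 in MOR-SAL, against 15.7, 49.6 and 79.7 in SAL-SAL, a difference of 45.1 ± 10.8 (adjusted p = 0.0962). With lists of equal length Jdp2 was called (adjusted p = 0.0481). All 12 MOR-SAL libraries lay above the SAL-SAL median at both genes.

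The interaction asks whether the effect of LPS differed between perinatal morphine and perinatal saline. It was called for 18 shared promoters, 13 with a higher and 5 with a lower LPS effect after morphine (0.562% and 0.216%), while 1.04% and 0.82% of all regions were called. Zeb2 (63.7 ± 15.2, adjusted p = 0.0175) and the Nfix region at chr8:84769961-84773755 (53.9 ± 13.6, adjusted p = 0.0214) were among those higher. Pex5l (65.4 ± 16.7, adjusted p = 0.0232) was another. Its rank was lower than in SAL-SAL both in SAL-LPS (-52.9 points) and in MOR-SAL (-40.7 points, not called). Sox8 (46.3 ± 12.5, adjusted p = 0.0321) and Atp6v0a1, a subunit of the vesicular proton pump (55.4 ± 16.5, adjusted p = 0.0479), followed. Ache, which encodes acetylcholinesterase, was the lowest (-63.1 ± 16.4, adjusted p = 0.0256), with median ranks of 42.0 in MOR-LPS, 82.6 in MOR-SAL, 66.2 in SAL-LPS and 28.0 in SAL-SAL. Psip1 (-50.2), Cacnb2 (-44.6), Rgs17 (-55.2) and Lemd1 (-47.1) were the others lower. With the number of neuron markers as a term 0 were called, with oligodendrocyte markers 0 and with astrocyte markers 11. Leaving out 1 library at a time gave 0 (without MOR-LPS male 14-0) to 61 calls (without MOR-LPS male 13-2), and lists of equal length gave 1, the Nfix region (adjusted p = 0.0456).

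Between the sexes 0 shared promoters were called by limma in hypothalamus, while 0.00725% of all regions were called higher in females and 0.0145% lower; 262 shared promoters had an unadjusted p under 0.05. Scn2b, a sodium channel beta subunit, had the smallest adjusted p, with ranks of 13.9, 73.7 and 97.8 in 22 female libraries, against 28.6, 93.8 and 99.7 in 19 male libraries, a change of -25.4 ± 6.3 (adjusted p = 0.0563). Hacd3, a fatty acid elongation enzyme, had a difference of 29.9 ± 7.8 (adjusted p = 0.0748). The neuron marker regions had a median change of -8.79 between females and males, with none called.

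In striatum, where the shared promoters were tested by the striatum region that overlaps them most, perinatal morphine under LPS gave 29 calls higher and 5 lower in MOR-LPS (1.25% and 0.216%), while 1.96% and 0.365% of the 60013 striatum regions were called. Hexim1, an inhibitor of the elongation factor P-TEFb (chr11:103114161-103116017), had ranks of 92.2, 97.8 and 99.9 in the 15 MOR-LPS libraries, against 25.3, 89.9 and 99.3 in the 13 SAL-LPS libraries, a difference of 23.2 ± 5.0 (adjusted p = 0.0265). Atp5l, an ATP synthase subunit, had 83.5, 95.1 and 99.3 in MOR-LPS, against 25.3, 66.8 and 90.2 in SAL-LPS, a difference of 26.6 ± 6.1 (adjusted p = 0.0276). Tia1, an RNA-binding protein of stress granules, was higher by 28.6 ± 6.7 (adjusted p = 0.0300). At all 3 every MOR-LPS library lay above the SAL-LPS median. Shisa9, an auxiliary subunit of AMPA receptors whose 2 shared promoters lie in 1 striatum region, had 25.1, 83.4 and 98.2 in MOR-LPS, against 74.7, 96.5 and 99.97 in SAL-LPS, a change of -22.4 ± 6.0 (adjusted p = 0.0345). Tnr, tenascin-R of perineuronal nets, changed by -19.9 ± 5.5 (adjusted p = 0.0359). Others called higher were Tsc1, an inhibitor of the growth kinase mTORC1, Tet3, which oxidises methylated cytosine, and the neuronal factor Mef2a.

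With lists of equal length none of the shared promoters was called in this striatum comparison, and leaving out 1 library gave 0 to 98 calls. It gave 0 without any one of 7 libraries (MOR-LPS female 15-3, 16-0, 16-2 or 7-1, or SAL-LPS female 10-0, 10-2 or 4-4) and 98 without SAL-LPS male 5-2. Oligodendrocyte markers had a strong peak at 0 to 16 of 18 genes in MOR-LPS libraries (median 1.0), against 0 to 5 in SAL-LPS (median 1.0), with Cspg4 and Pdgfra at none in any library; their part in the result was not tested. Of the 37 regions called higher in hypothalamus and the 29 in striatum, 1 was in both lists (Slc15a4, a lysosomal histidine transporter), and none of the 17 and 5 called lower was; the libraries of the brain regions came in part from the same animals. In hypothalamus the Hexim1, Atp5l and Tia1 regions were not among those called.

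The other striatum comparisons gave fewer calls. MOR-LPS against MOR-SAL gave 12 higher, Acap3, Gnb2 and Sema3b among them, and 1 lower (Nwd2), while 0.12% and 0.133% of all regions were called; 2 were called with lists of equal length and 5 with the number of peaks as a term. MOR-SAL against SAL-SAL gave 0 higher and 2 lower, while 0.00167% and 0.005% of all regions were called. The 2 were Epb41l1, a protein of the neuronal membrane skeleton, with 26.4, 51.2 and 94.4 in MOR-SAL, against 80.2, 92.5 and 99.9 in SAL-SAL (-37.9 ± 7.4, adjusted p = 0.0314), and Gm10762 (-32.1 ± 6.5, adjusted p = 0.0381). Neither was called with lists of equal length (adjusted p = 0.491 and 0.594). The interaction gave 1 call, at Acap3, while 0.0117% and 0.005% of all regions were called higher and lower. SAL-LPS against SAL-SAL gave 0 calls by limma among the shared promoters and 0% of all regions, with 196 shared promoters at an unadjusted p under 0.05. Females had 8 shared promoters higher than males and 0 lower, while 0.61% and 0.188% of all regions were called. They included C1qtnf6, a secreted C1q-like protein, with 41.6, 93.2 and 99.6 in females, against 22.2, 63.3 and 92.2 in males (24.5 ± 5.7, adjusted p = 0.0412), and Hepacam, a glial adhesion protein (28.8 ± 7.0, adjusted p = 0.0427). With lists of equal length none of the 8 was called.

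In PFC and hippocampus limma called none of the shared promoters in any of the 6 comparisons, where at most 0.00547% of all PFC regions (higher in females) and 0.00617% of all hippocampus regions were called. For MOR-LPS against SAL-LPS, 244 shared promoters in PFC and 184 in hippocampus had an unadjusted p under 0.05, and ranking by fold enrichment gave 6 calls in PFC and 0 in hippocampus. The same ranking gave 3 calls in PFC for MOR-LPS against MOR-SAL and 4 in hippocampus between the sexes. The smallest adjusted p in PFC was at Tmbim1, a membrane protein of the Bax inhibitor family, with ranks of 15.1, 50.2 and 98.6 in MOR-LPS, against 0.391, 14.9 and 27.5 in SAL-LPS (40.5 ± 9.1, adjusted p = 0.0809). Usp54 was next to it with 36.4 ± 9.0 (adjusted p = 0.0916). In hippocampus the smallest was at Diaph3, an actin-nucleating formin, with 28.1 ± 7.0 (adjusted p = 0.227).

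The regions called in hypothalamus can be followed through the other brain regions for MOR-LPS against SAL-LPS. Nfix (chr8:84769961-84773755) had differences of 25.7 in PFC (adjusted p = 0.240), -14.3 in hippocampus (0.766) and 28.6 in striatum (0.0774), against 44.7 in hypothalamus. Usp54 had 36.4, 0.426 and 22.6 in that order, against 40.9. Zeb2 had 18.3, 16.0 and 24.6, against 41.0, and Serpina3n 22.6, 11.5 and 16.4, against 45.7. Mmp16 had 1.04, 6.01 and -2.51, against -28.4, and Cacnb2 -2.58, -18.1 and -5.00, against -30.5. None of these was called outside hypothalamus, and the difference between brain regions was not tested.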

How the data were processed

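H3K27ac MOWChIP-seq was read from 174 narrowPeak lists and 4 consensus region lists. Upstream, the authors used Trim Galore 0.6.7 for trimming, Bowtie2 2.4.5 for alignment to the mm10 genome, and MACS2 2.2.7.1 at q 0.05 for peak calling in every library by itself. The deposited lists give each peak a summit, a −log10 p, a −log10 q, a fold enrichment over the local background and a score that is the −log10 q scaled to a whole number by MACS2. The deposited consensus lists hold positions only. No count table was used here, so the authors' model of counts was not repeated. Each region took the largest −log10 p among its peaks in a library, or 0 where it had none, and these values were turned into percentile ranks within the library.

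Groups were compared with limma 3.58.1 (R 4.3.3) with trended variance, 1 fit per brain region with 4 groups and sex, and Benjamini-Hochberg adjustment over all regions of that brain region. Shared promoters were tested outside hypothalamus by the region of largest overlap. p-values measure the spread between animals, 1 library each. The script was tested on simulated data. TSSs were those of protein-coding transcripts in the basic set of GENCODE M21; windows were read with pysam 0.24.0, with the TSS at position 0. The named regions were those of smallest p in each direction (6 in hypothalamus, 3 elsewhere) and those of smallest p in each gene list; other called regions were named after their values were seen, and some are not reported here. The regions and lists were chosen with earlier results of these data known.

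The hippocampus SAL-LPS male lists 5-2 and 1-2 were identical and counted once. PFC SAL-SAL female 9-2 (4371 peaks) was left out, and the list of PFC MOR-LPS female 12-2 holds peaks named for 12-0. What the number before the dash in a replicate label stands for is not given in the sources used here, and most of these numbers hold 1 sex; the correlation within a number estimated by limma was -0.0159 in hypothalamus, 0.0336 in PFC, 0.00141 in hippocampus and -0.00143 in striatum.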

Additional observations from a re-analysis of the deposited data

Results flagged for a closer look

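In 17 of 75 groups tested, 1 library lay far from the others of its group. These groups were not independent, since some libraries recur and both Shisa9 regions share their striatum values. The count was therefore not set against a rate expected by chance. The percentage of shared promoters with a peak was 59.7 in the hypothalamus MOR-LPS male library 6-0, 37.5 in the hypothalamus SAL-SAL female library 10-3, 0.346 in the PFC MOR-SAL male library 13-1, 73.9 in the PFC SAL-SAL female library 9-0, 42.8 in the hippocampus MOR-LPS male library 6-0 and 50.8 in the striatum SAL-SAL female library 10-3, the lowest of each group. Animals 6-0 and 10-3 each stood out in 2 brain regions.

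Some ranks at single regions stood apart in the same way. In hypothalamus, Dpysl3 had 94.3 in MOR-LPS male 13-2 (next 55.6), Serpina3n 70.9 in MOR-LPS female 16-0 (next 85.3), Sulf2 13.9 in MOR-LPS male 14-0 (next 53.7) and the first Nfix region 97.0 in SAL-SAL female 9-4 (next 33.8). In striatum, both Shisa9 regions, which share 1 striatum region, had 36.4 in MOR-SAL female 16-1 (next 86.1) and 53.0 in SAL-SAL female 9-4 (next 88.3). Atp5l had 25.3 in MOR-SAL female 7-2 (next 72.0), and Tia1 and Narf both had 37.7 in SAL-SAL male 3-2 (next 73.0 at Tia1). The 13.9 at Sulf2 was also the lowest rank of Dpysl3 in hypothalamus MOR-LPS. Equal low values at different regions can be the shared rank of regions without a peak.

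The 11 hypothalamus regions listed here were named because limma called the interaction term at them with the smallest p. In all, 13 shared promoters were called higher and 5 lower, while 1.04% and 0.82% of all regions were called. Most of these calls were lost with lists of equal length. None was left with the libraries of a single lane or with the number of neuron markers as a term. The effect of LPS was more positive after morphine at Pex5l (65.4 points), Zeb2 (63.7), 9330159F19Rik (62.0), Sox8 (46.3) and the Nfix regions (55.5 and 53.9). It was more negative at Ache (-63.1), Rgs17 (-55.2), Psip1 (-50.2), Lemd1 (-47.1) and Cacnb2 (-44.6). At Sox8 the median ranks were 41.3 in MOR-LPS, 16.5 in MOR-SAL, 13.2 in SAL-LPS and 25.2 in SAL-SAL.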

How the results depend on the processing

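The number of members of the shared set was 2312 as given, 2132 with at least 0.5 of the length covered in every other list, 2232 with a TSS within 500 bp, 1890 with gene starts alone and 2465 with all protein-coding transcripts. In hypothalamus, the calls among shared promoters for MOR-LPS against SAL-LPS (54) became 21 with lists of equal length, 28 with the lane as a term, 6 with 1 lane alone, and 10, 4 and 8 with the astrocyte, neuron or oligodendrocyte marker number as a term. For MOR-SAL against SAL-SAL (0) they became 1 with lists of equal length and 1 with the oligodendrocyte marker number as a term. For SAL-LPS against SAL-SAL (1) they became 0 with lists of equal length, 0 with 1 lane alone and 0 without the libraries with peaks in few shared promoters, an alternative chosen after seeing the data, as were the settings on lanes, on oligodendrocyte markers and on markers in comparisons other than MOR-LPS against SAL-LPS, those on SAL-LPS against SAL-SAL, MOR-LPS against MOR-SAL and the interaction outside hypothalamus, and the leaving out of single libraries beyond MOR-LPS against SAL-LPS in hypothalamus. For MOR-LPS against MOR-SAL (44) they became 0 with 1 lane alone, 0 with the neuron and 19 with the oligodendrocyte marker number as a term. For the interaction (18) they became 1 with lists of equal length, 4 with peaks of −log10 q of 3 or more, 30 with the number of peaks as a term, 0 with 1 lane alone, 10 without the libraries with peaks in few shared promoters, and 0, 0 and 11 with the neuron, oligodendrocyte and astrocyte marker number as a term. For female against male (0) they became 2 without these libraries. In PFC, MOR-LPS against SAL-LPS (0) gave 6 when ranked by fold enrichment and MOR-LPS against MOR-SAL (0) gave 3, and in hippocampus female against male (0) gave 4. In striatum, MOR-LPS against SAL-LPS (34) gave 0 with lists of equal length, MOR-LPS against MOR-SAL (13) gave 2 with lists of equal length, 5 with the number of peaks as a term and 21 without the libraries with peaks in few shared promoters, the interaction (1) gave 0 with lists of equal length, 0 with −log10 q of 3 or more, 0 with the number of peaks as a term, 0 with a TSS within 500 bp and 2 with fold enrichment, MOR-SAL against SAL-SAL (2) gave 0 with lists of equal length and 0 with −log10 q of 3 or more, and female against male (8) gave 0, 13, 0, 13 and 5 with lists of equal length, fold enrichment, −log10 q of 3 or more, the number of peaks as a term and without the libraries with peaks in few shared promoters. The causes were not tested. No direction was reversed. Of the 51 called regions named, 33 lost the call with lists of equal length, 5 without the libraries with peaks in few shared promoters, and, of 40 in hypothalamus, 37 with 1 lane alone and 3 with the lane as a term.

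Leaving out each library in turn gave 16 to 97 calls in hypothalamus for MOR-LPS against SAL-LPS. The 12 libraries that moved it by over 1.5 times were MOR-LPS female 15-1 (20), 15-3 (24), 16-4 (29) and 18-1 (94), MOR-LPS male 13-2 (97), 14-0 (26) and 14-4 (16), and SAL-LPS female 10-0 (34), 10-2 (23), 10-4 (88), 3-1 (31) and 9-1 (24). The range was 15 to 85 for MOR-LPS against MOR-SAL, where MOR-LPS male 14-4 (15), 14-0 (18) and 13-2 (84), MOR-LPS female 18-1 (85), and MOR-SAL female 16-3 (25) and 18-0 (80) moved it. It was 0 to 1 for MOR-SAL against SAL-SAL, 0 to 4 for SAL-LPS against SAL-SAL, 0 to 2 for female against male and 0 to 61 for the interaction. In striatum it was 0 to 98 for MOR-LPS against SAL-LPS, where MOR-LPS female 15-3, 16-0, 16-2 and 7-1 and SAL-LPS female 10-0, 10-2 and 4-4 (0 each), MOR-LPS male 14-4 (2) and 6-0 (53), MOR-LPS female 12-2 (72), SAL-LPS female 3-1 (4), 9-1 (15), 9-3 (15) and 10-4 (84) and SAL-LPS male 5-2 (98) moved it. It was 0 to 3 for MOR-SAL against SAL-SAL, 0 to 50 for female against male, 5 to 21 for MOR-LPS against MOR-SAL, 0 to 0 for SAL-LPS against SAL-SAL and 0 to 7 for the interaction. It was not run in PFC and hippocampus.

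With the number before the dash of the replicate label as a replicate block, female against male in hypothalamus gave 1 call (Scn2b, adjusted p = 0.0460); all 51 called regions named kept their call, and no other count left its range of 1.5 times. Ranks hold the order within a list, so a change of all regions together cannot be seen, and a region without a peak has only an upper limit. Short lists leave more regions without a peak.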

Other observations

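Beyond the genes above, the levels of several lists can be set side by side over the brain regions. The 14 regions at immediate early genes had median ranks within the shared promoters of 39.8 in hypothalamus, 49.3 in PFC, 43.6 in hippocampus and 40.5 in striatum, at or below the medians of all shared promoters (49.5, 49.9, 48.8 and 49.8). The 8 regions at ribosomal protein genes had 50.5, 71.2, 50.3 and 58.4, and the chaperonin and heat shock regions 52.7, 72.8, 53.5 and 59.3, in both cases highest in PFC, the brain region with another library kit. The neuron marker regions had 51.8, 42.2, 51.1 and 48.4, lowest in PFC. These are descriptions without a test.

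Some regions of smallest p in their list missed the threshold for MOR-LPS against SAL-LPS in hypothalamus. Atp6v0e, a subunit of the vesicular proton pump, had a difference of 32.3 ± 11.2 points (adjusted p by limma 0.0656), with medians of 76.5 in MOR-LPS and 25.3 in SAL-LPS. Slc27a1, a fatty acid transporter, had 31.3 ± 11.2 (0.0769) and Dbp, an output factor of the clock, 26.0 ± 9.6 (0.0898). Rpl21, a ribosomal protein gene, had -28.9 ± 9.7 (0.0578), opposite in sign to the median of its list (4.11).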
